A study of Mus musculus with 12 samples.

Results

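Livers of diabetic mice that received MENS were compared with livers of diabetic mice that did not, gene by gene, on Phalanx Mouse OneArray oligonucleotide arrays. Diabetes had been induced with STZ (streptozotocin, a toxin of the insulin-producing beta cells of the pancreas). The labels leave the abbreviation MENS unexplained, so it stands here as the name of a treatment, applied through a printed circuit board that a MENS device powered, for 1 h per day, 5 days per week and 6 weeks. The comparison held 8 of the 12 arrays of the series. These came from 2 livers of the STZ+MENS group (titled MENS1 and MENS6, called samples 1 and 2) and 2 livers of the STZ group (titled STZ4 and STZ10, called samples 1 and 2), each measured on 2 arrays that were averaged, so n = 2 per group throughout. The remaining 4 arrays came from 2 untreated control livers, which served as the background. All mice carried the age of 8 weeks in the labels, without a statement whether at the start or at sampling, and strain, genotype and sex are not given in the labels. The labels do not say that each liver sample is 1 animal, so the errors measure only the spread between these samples.

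A liver without insulin signalling is known to make and release glucose, to burn fatty acids and to slow the synthesis of fat and cholesterol. Hepatocytes also carry a large machinery for folding and exporting secreted proteins, and mitochondria that serve fuel oxidation and the urea cycle. Heat shock proteins and the chaperones of the endoplasmic reticulum (ER) fold proteins and are induced when unfolded proteins accumulate.

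The genes at least 2-fold lower in STZ+MENS outnumbered those at least 2-fold higher by 3.40 to 1. Of 17742 genes, 622 (3.51%) were at least 2-fold lower with an unadjusted p under 0.05, and 183 (1.03%) were at least 2-fold higher. Among those lower were genes for heat shock proteins, ER protein folding and export, mitochondrial fuel oxidation and drug conjugation, and a few of glucose release. No gene passed a threshold of 0.05 after Benjamini-Hochberg adjustment over all genes (0 of 17742, 0%), while 4503 (25.4%) had an unadjusted p under 0.05 in limma's moderated test. The lowest adjusted p was 0.0569, and the adjusted p of the 622 lower genes lay between 0.0569 and 0.195, so each gene below is given with its values and none is called changed.

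The imbalance was larger at 2-fold and above than below it. Without a fold limit, the 4503 genes split into 2260 lower and 2243 higher. At a least difference of 1.25-fold the lower genes made up 50.2%, at 1.5-fold 60.1%, at 2-fold 77.3% and at 3-fold 83.3%. At 4-fold it was 77.6%, with 45 genes lower and 13 higher. The distribution of differences was uneven: its 1st percentile lay at -1.53 and its 99th at 1.06 on the log2 scale, around a median of 0.06.

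**Figure D1:**
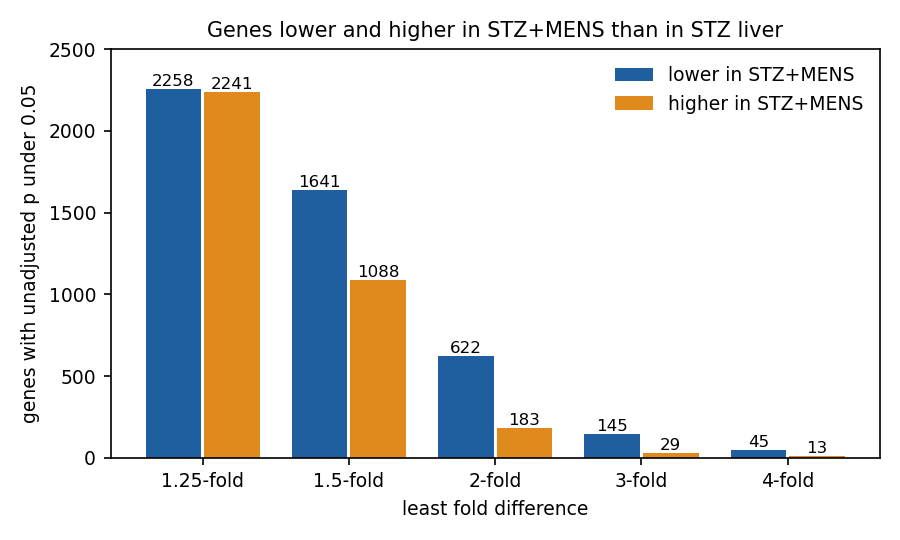
Number of genes with an unadjusted p under 0.05 (vertical axis) whose difference between STZ+MENS and STZ reached the fold given on the horizontal axis, lower genes in blue and higher genes in orange. The bars are level at 1.25-fold (2258 and 2241 genes) and part at 2-fold (622 and 183 genes).

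Lower genes outnumbered higher ones in each of the 4 pairs of single livers, which share livers and so are not separate readings. At 2-fold by size alone, STZ+MENS sample 1 had 1325 genes lower and 720 higher than STZ sample 1, and 1075 lower and 480 higher than STZ sample 2. STZ+MENS sample 2 had 690 lower and 372 higher than STZ sample 1, and 407 lower and 173 higher than STZ sample 2. Livers of the same group also differed: 447 genes were at least 2-fold lower in STZ+MENS sample 1 than in sample 2 and 278 higher, against 220 and 145 for the STZ samples and 104 and 318 for the controls. The STZ+MENS livers thus differed from each other at more genes (447 and 278) than the closest pair between treatment groups did (407 and 173). Counts were also unbalanced within a group, most of all between the 2 untreated control livers (104 and 318).

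Both STZ+MENS livers were below both STZ livers for 4240 genes (23.9%) and above both for 6033 genes (34%), so small differences more often pointed up and large ones down. All 622 lower genes were among the former. A 2-fold difference in each of the 4 pairs was reached by 123 genes downward (0.693%) and 48 upward (0.271%). The weakest of the 622 differed by -1.0007 and the gene just outside by -0.9998 on the log2 scale, and 54 further genes reached 2-fold downward with a larger p.

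STZ+MENS sample 1 lay lowest for most of the lower genes. The median log2 level of the 622 was 12.48 and 12.10 in the STZ livers, 10.55 and 11.17 in the STZ+MENS livers, and 11.85 and 11.64 in the controls. Sample 1 was the lower STZ+MENS liver for 534 of the 622 genes, and sample 1 was the higher STZ liver for 504. Leaving out STZ+MENS sample 1 gave 427 lower and 143 higher genes, and leaving out its sample 2 gave 1096 and 421. The counts were 470 and 180 without STZ sample 1 and 792 and 321 without STZ sample 2. Of the 622 genes, 314 stayed at least 2-fold lower with p under 0.05 without STZ+MENS sample 1, and 378 without STZ sample 1.

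**Figure D2:**
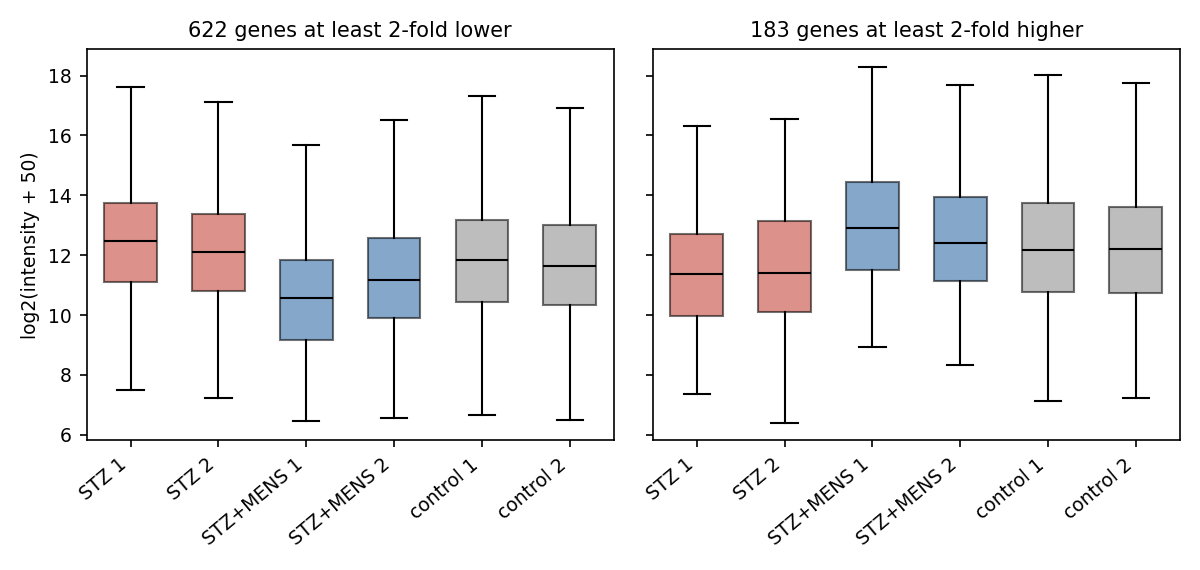
Log2(intensity + 50) of the 622 lower genes (left) and the 183 higher genes (right) in each liver; boxes span the quartiles with the median as a line, and whiskers reach the furthest gene within 1.5 box lengths. The genes were chosen by this contrast, so the gap between red and blue boxes follows from the choice; STZ+MENS sample 1 has the lowest median at left (10.55) and the highest at right (12.92).

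The lower genes were spread over genes of medium and high intensity. Of the dimmest 10% of genes 1 was 2-fold lower and 0 higher, where the offset of 50 shrinks differences. In steps of 10%, the share that was lower was highest at mean log2 levels of up to 12.89 in the eighth step (108 of 1774 genes, 6.09%) and was 4.34% among the brightest (77 of 1775), where 31 were higher. Among the 9670 genes with a mean log2 level of at least 10, 5.08% were lower, and among the 1892 with at least 14, 4.33%. Those shares, and not 3.51% alone, are the background for lists of bright liver genes.

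The genes furthest below STZ came from many compartments of the cell. Tuba8, an alpha-tubulin, had log2 levels of 12.60 and 12.07 in the STZ livers, 8.47 and 10.20 in the STZ+MENS livers, and 8.56 and 8.83 in the controls. Its difference of -3.00 ± 0.53 (SE; adjusted p = 0.0595 by limma) corresponded to 8.00-fold, and the control livers were as low as STZ+MENS sample 1. Slc25a25, a mitochondrial ATP-Mg/phosphate carrier, stood at 14.20 and 14.49 in STZ and at 11.92 and 11.17 in STZ+MENS, where sample 2 was the lower one, and the controls at 15.29 and 13.49 were near STZ (difference -2.80 ± 0.57). Sugct, a succinate-hydroxymethylglutarate CoA-transferase, was at 12.31 and 12.35 in STZ, 9.03 and 10.24 in STZ+MENS, and 12.51 and 12.62 in control. STZ and control livers thus lay close together for Sugct and both STZ+MENS livers well below.

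Timmdc1, an assembly factor of respiratory complex I, was at 10.26 and 9.85 in STZ and at 7.15 and 7.74 in STZ+MENS, beside 7.27 and 7.79 in control (difference -2.61 ± 0.28, adjusted p = 0.0569). Ggh, the gamma-glutamyl hydrolase of folate breakdown, was at 12.70 and 11.86 in STZ and at 9.67 and 9.95 in STZ+MENS (-2.47 ± 0.29), with controls between at 11.14 and 10.98. In both genes the 2 STZ+MENS livers lay within 0.6 of each other. Psmb7, a catalytic proteasome subunit, was at 13.35 and 11.90 in STZ, 8.80 and 11.14 in STZ+MENS, and 12.50 and 12.29 in control (-2.65 ± 0.79, adjusted p = 0.117). Its falling order of STZ sample 1, STZ sample 2, STZ+MENS sample 2 and STZ+MENS sample 1 was shared by 17 of the 20 genes with the largest differences.

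That order also held for Cpb2 (-2.65 ± 0.85), a plasma carboxypeptidase that slows clot breakdown, and for Acmsd (-2.36 ± 0.78), an enzyme of tryptophan breakdown. It held for Eif3i (-2.42 ± 0.76), a translation initiation factor subunit, Spcs1 (-2.31 ± 0.78), a signal peptidase subunit, and Cct3 (-2.31 ± 0.73), a subunit of the cytosolic chaperonin. STZ+MENS sample 1 was the lower of the 2 in 19 of the 20 genes, with Slc25a25 the exception. Each of the 20 stayed at least 2-fold lower when any 1 liver was left out. These genes were chosen for the largest differences in these same livers, which favours that outcome. Without STZ+MENS sample 1, however, 10 of the 20 differences moved by more than 1.5 times and 15 kept p under 0.05, and without STZ sample 1 12 kept it.

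**Figure D3:**
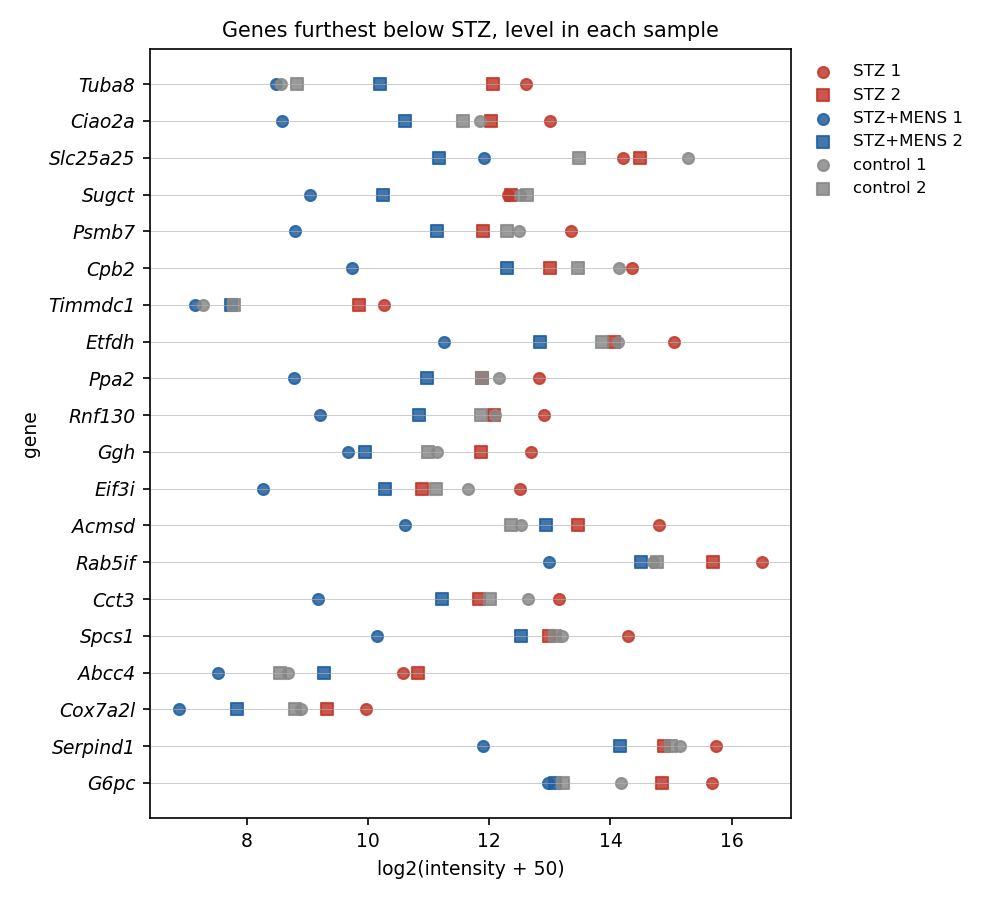
Log2(intensity + 50) of the 20 genes with the largest lower differences (rows, largest at the top) in each of the 6 livers, STZ in red, STZ+MENS in blue and control in grey. For 19 of the 20 genes STZ+MENS sample 1 (blue circle) lies below STZ+MENS sample 2 (blue square).

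Which functions the lower genes hold was read from 82 lists of pathways and gene families. They covered 232 of the 622 lower genes. In 53 lists at least 1 member was 2-fold lower and none was higher, in 5 lists the reverse was seen, 15 lists had both and 9 had neither. In the lists below, lower and higher refer to the 2-fold limit with unadjusted p under 0.05, for which the shares over all genes were 3.51% and 1.03%, and no member of any list passed after adjustment over all genes.

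**Figure D4:**
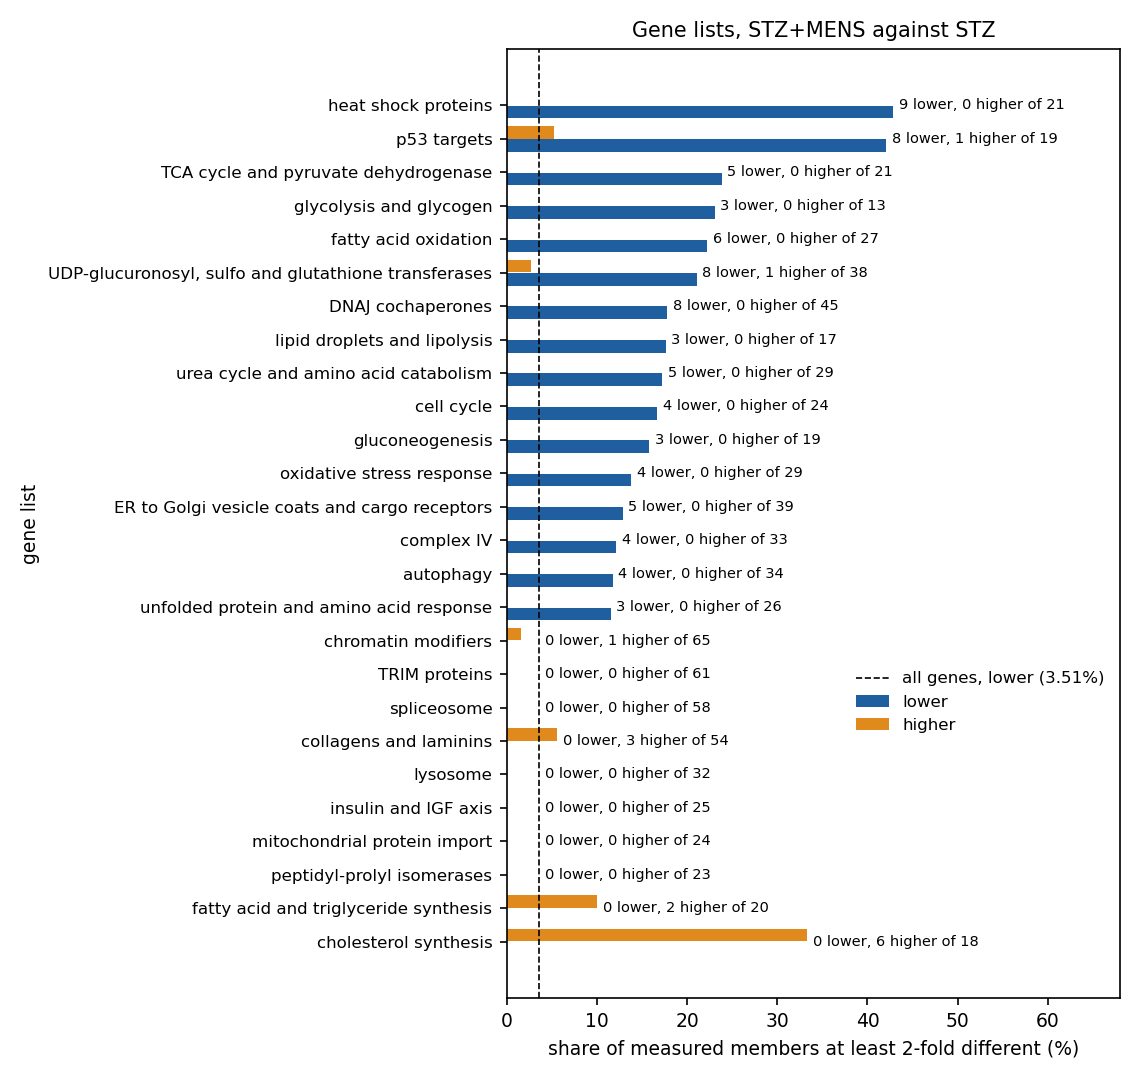
Share of measured members at least 2-fold lower (blue) or higher (orange) with unadjusted p under 0.05, for lists of at least 13 genes: the 16 with the highest lower share and at least 3 lower members, and below them the lists of at least 18 genes with 0 lower members. The dashed line is the share of all genes that was lower, 3.51%; the heat shock and p53 lists reach 42.9% and 42.1%.

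Of 21 measured genes for heat shock proteins and their partners 9 were lower and 0 higher, with a median difference of -0.98 against 0.06 for all genes. Hspa4, a member of the Hsp110 family that exchanges the nucleotide of Hsp70, was at 13.31 in both STZ livers, 11.55 and 12.20 in STZ+MENS, and 13.003 and 12.59 in control (-1.44 ± 0.25). Dnaja1, an Hsp40 partner that hands substrates to Hsp70, was at 16.23 and 15.88 in STZ, 14.61 and 14.97 in STZ+MENS, and 15.91 and 15.47 in control (-1.26 ± 0.23). As for all 622 lower genes, the STZ and STZ+MENS livers did not overlap, and for both genes the control mean lay nearer to STZ. The related Hspa4l differed by -1.36 ± 0.32 and the Hsp40 gene Dnajb4 by -1.27 ± 0.30.

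Further members were named after their values were seen. Hspe1, the mitochondrial co-chaperonin Hsp10, differed by -2.11 ± 0.54, Hspa9, the mitochondrial Hsp70, by -1.58 ± 0.45 and Ahsa1, an activator of Hsp90, by -1.65 ± 0.41. Dnajb1 and Hsph1, classical heat-inducible genes, differed by -1.52 ± 0.51 and -1.38 ± 0.46. The stress-inducible Hsp70 gene Hspa1a was at 12.18 and 10.62 in STZ, 10.06 and 10.79 in STZ+MENS, and 13.96 and 12.57 in control, so that its groups overlapped (-0.98 ± 0.64). Hsf1, the transcription factor of the heat shock response, was the member with the largest positive difference, and 12 of the 21 genes stayed inside 2-fold. The count of 9 ranged from 4 without STZ sample 1 to 13 without STZ sample 2.

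Chaperones and response genes of the ER were also among those lower. Of 26 genes of the unfolded protein and amino acid response 3 were lower and 0 higher (median -0.28). Hspa5 (BiP), the main Hsp70 of the ER, was at 16.59 and 16.30 in STZ, 14.79 and 15.72 in STZ+MENS, and 16.63 and 16.39 in control (-1.19 ± 0.31). Dnajb9, its Hsp40 partner in disposal of misfolded proteins, was at 13.10 and 12.45, then 10.24 and 11.53, with controls at 13.31 and 13.11 (-1.89 ± 0.43). Dnajc3, an ER Hsp40 and inhibitor of the kinase PERK, was at 14.35 and 14.12, then 13.03 and 13.14, with controls at 13.78 and 13.61 (-1.15 ± 0.16, adjusted p = 0.0595). In all these genes both STZ+MENS livers were below both STZ and both control livers. The count of 3 ranged from 2 without STZ+MENS sample 1 to 5 without STZ sample 2 and 6 without STZ+MENS sample 2. When the first STZ+MENS liver was left out, Hspa5 differed by -0.73 and Dnajb9 by -1.24. Of 45 genes matched by name to the Hsp40 family, which includes Dnaja1, Dnajb4, Dnajb9 and Dnajc3, 8 were lower and 0 higher. The other 37 stayed inside 2-fold, and the median difference of the family was 0.03.

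Promoter stretches of 3 of these chaperone genes are shown because they hold the textbook elements of the heat shock and ER stress responses. They were read from RefSeq promoter sequences of GRCm38.p6, each 250 bases before to 50 after the gene's start. The heat shock element was searched as GAANNTTCNNGAA and the ER stress element as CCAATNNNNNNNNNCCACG, both on either strand, where N is any base. Capitals mark the matches, and 20 bases are given on each side:
Hspe1: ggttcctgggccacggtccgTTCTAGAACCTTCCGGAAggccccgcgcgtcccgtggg
Hspa5: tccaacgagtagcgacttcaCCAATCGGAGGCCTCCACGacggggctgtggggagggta
Dnajc3: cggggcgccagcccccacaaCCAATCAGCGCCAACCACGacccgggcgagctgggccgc

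The Hspe1 stretch lies at chr1:55088039-55088096 on the plus strand and holds 2 overlapping matches, between 89 and 72 bases before the start. The Hspa5 stretch lies at chr2:34772005-34772063, plus strand, with its match 65 to 47 bases before the start, and the Dnajc3 stretch at chr14:118937807-118937865, plus strand, with its match 105 to 87 bases before it. The heat shock element was found in 81 of 13980 measured genes with a promoter sequence (0.579%), in 5 of the 484 lower genes that had one (1.03%) and in 0 of 137 higher genes. In the heat shock list 3 of 18 genes held it: Hspe1 and Hsph1, which were lower, and Chordc1, which was not. The ER stress element was found in 19 of the 13980 genes (0.136%), in 3 of the 484 lower genes (0.620%) and in 0 of the 137 higher genes. In the unfolded protein list 7 of 24 genes held it. Of these 7, Hspa5 and Dnajc3 were 2-fold lower, and Calr, Canx, Creld2, Hsp90b1 and Pdia6 were not. These are matches of letters in these windows and no measure of binding.

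**Figure D5:**
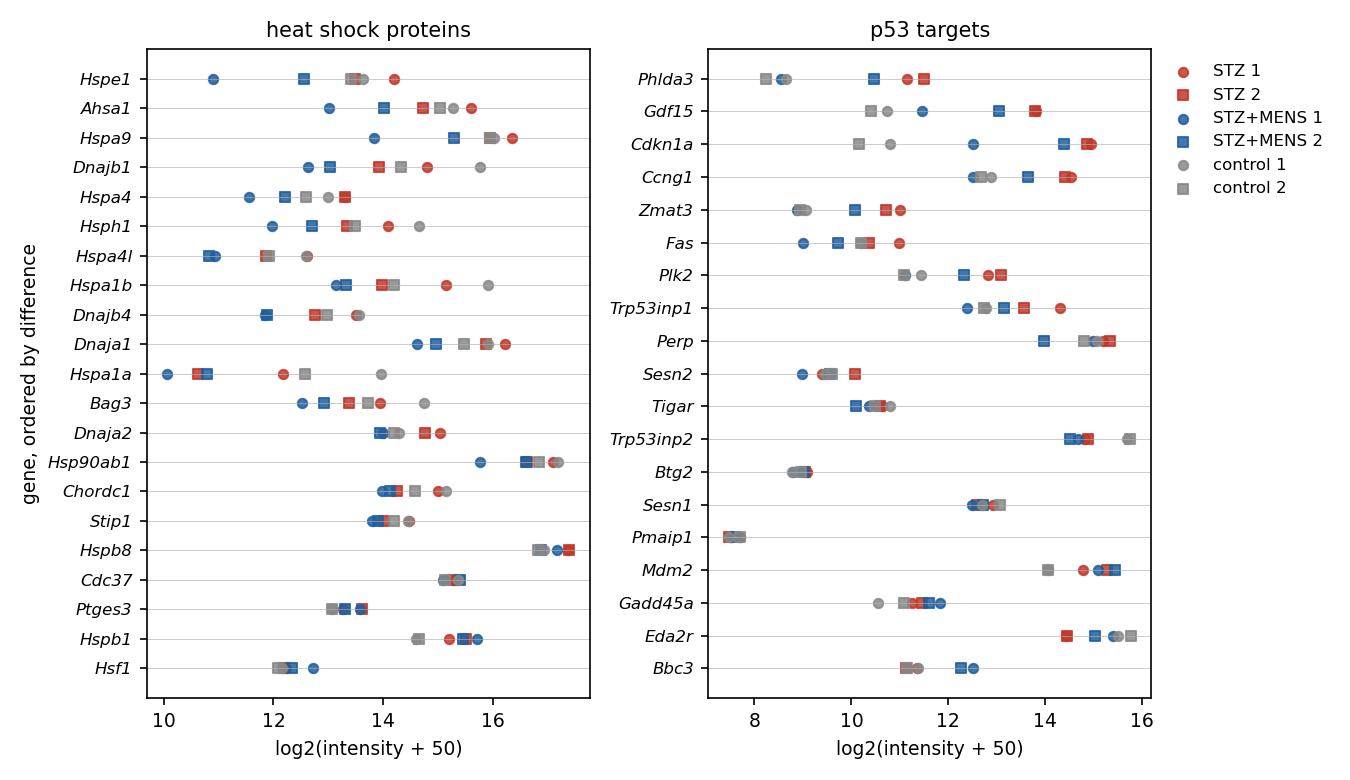
Log2(intensity + 50) of all 21 measured heat shock genes (left) and all 19 measured p53 target genes (right) in each liver, ordered by the difference between STZ+MENS and STZ, largest lower difference at the top. In the upper rows the blue points lie left of the red ones; control livers (grey) lie near STZ for most of these heat shock genes and below both groups or near STZ+MENS for most of these p53 targets.

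A list of the ER membrane complex and of ER-associated degradation, whose genes insert membrane proteins and dispose of misfolded ones, was compiled after values were seen. Of its 33 members 11 were lower, 0 higher and 22 inside 2-fold (median -0.46). Tmco1, a calcium-load channel and translocon partner, was at 15.07 and 14.74 in STZ, 13.32 and 13.47 in STZ+MENS, and 14.20 and 14.35 in control (-1.51 ± 0.17, adjusted p = 0.0569). A dimmer probe of Tmco1 differed by 0.22, in the other direction. Emc7, a subunit of the membrane complex, differed by -1.06 ± 0.15, Rnf139, an ER ubiquitin ligase, by -1.23 ± 0.18 and Bcap31, an ER export and quality control protein, by -1.34 ± 0.30. The count of 11 ranged from 4 without STZ+MENS sample 1, and 7 without STZ sample 1, to 14 without STZ+MENS sample 2.

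The lists of protein export and vesicle traffic differed in their shares. Of 23 signal peptide and translocon genes 1, Spcs1, was lower and 0 were higher (4.35% lower, median -0.06). Of 39 genes of ER-to-Golgi coats and cargo receptors 5 were lower and 0 higher (median -0.22; 3 to 5 when 1 liver was left out, 3 without STZ sample 1 or STZ+MENS sample 1). Tmed5, a p24 cargo receptor, was at 13.40 and 13.22 in STZ, 11.44 and 11.58 in STZ+MENS, and 12.58 and 12.11 in control (-1.80 ± 0.20, adjusted p = 0.0569), with close replicates in both groups. Bet1, a vesicle fusion protein, differed by -1.27 ± 0.21 and the coat subunit Sec24d by -1.18 ± 0.20. Among 75 VPS, CHMP and sorting nexin genes of endosomes 8 were lower and 0 higher (median -0.16; from 3 without STZ+MENS sample 1, and 4 without STZ sample 1, to 12 without STZ+MENS sample 2). The retromer core gene Vps35 was at 13.97 and 13.85 in STZ and at 11.96 and 12.74 in STZ+MENS (-1.56 ± 0.27), and the sorting nexin Snx7 differed by -2.12 ± 0.31. Of 32 genes of the TRAPP, exocyst and COG tethers, which hold vesicles at their target membrane, 2 were lower and 0 higher (median -0.06; 1 to 6 when 1 liver was left out, with 5 without STZ sample 2 and 6 when the second STZ+MENS liver was omitted). Of 68 genes matched by name to Rab GTPases, the switches of vesicle transport, 2 were lower and 0 higher (2.94%, median 0.08; 1 without STZ sample 1, and 3 when either STZ+MENS liver was left out), and that match also takes in Rab5if, which is not a Rab. Of 32 lysosome genes and 24 genes of mitochondrial protein import 0 were 2-fold lower and 0 higher, but without STZ+MENS sample 2 these lists had 2 and 4 lower.

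Mitochondrial fuel oxidation held several of the lower genes. In the list of fatty acid oxidation 6 of 27 were lower and 0 higher (median -0.36). Ehhadh, the bifunctional enzyme of peroxisomal beta-oxidation and a target of PPARalpha, was at 15.59 and 15.34 in STZ, 13.07 and 13.58 in STZ+MENS, and 14.65 and 14.30 in control (-2.14 ± 0.23, 4.41-fold, adjusted p = 0.0569). Etfdh, which passes electrons of fatty acid oxidation to ubiquinone, was at 15.04 and 14.05, then 11.24 and 12.84, with controls at 14.13 and 13.86 (-2.51 ± 0.55). Both STZ+MENS livers were thus below the controls for these genes. Echs1, the mitochondrial enoyl-CoA hydratase, differed by -1.37 ± 0.27 and the thioesterase Acot2 by -1.19 ± 0.21. Cpt1a, the carnitine palmitoyltransferase of the outer mitochondrial membrane, was at 16.05 and 16.30 in STZ and 15.88 and 16.09 in STZ+MENS, where the groups overlapped (-0.19 ± 0.16). The count of 6 was 2 without STZ+MENS sample 1.

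In the tricarboxylic acid cycle and pyruvate dehydrogenase list 5 of 21 were lower and 0 higher (median -0.49; from 2 without STZ+MENS sample 1, and 3 without STZ sample 1, to 8 without STZ+MENS sample 2). Dld, the lipoamide dehydrogenase shared by several keto acid dehydrogenases, was at 15.11 and 14.86 in STZ, 13.26 and 13.94 in STZ+MENS, and 14.29 and 14.10 in control (-1.39 ± 0.25). The succinate dehydrogenase subunits Sdhd and Sdha differed by -1.21 ± 0.24 and -1.20 ± 0.28 and the succinyl-CoA ligase subunit Sucla2 by -1.11 ± 0.26. Of 43 genes of complex I 4 were lower and 0 higher, and of 33 genes of complex IV 4 and 0. Leaving out the second STZ+MENS liver gave 8 and 7 lower, and complex I had 2 without the first or without STZ sample 1. The lower genes included Ndufb11 (-1.31 ± 0.22), Coa6 (-1.42 ± 0.17), a copper assembly factor, and Cox5a (-1.53 ± 0.38). Without STZ+MENS sample 1 Cox5a differed by -0.91 and Sdha by -0.79. In both complexes about 1 in 10 members was lower, and 0 of 9 genes of complex III.

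Mitochondrial proteases and genome maintenance, a list compiled after values were seen, had 8 of 26 lower and 0 higher (median -0.17; 3 without STZ+MENS sample 1, 4 without STZ sample 1). Clpx, the unfoldase of a matrix protease, was at 14.36 and 13.97 in STZ, 11.95 and 12.77 in STZ+MENS, and 12.97 and 12.995 in control (-1.81 ± 0.29). Tfam, which packages mitochondrial DNA, differed by -1.16 ± 0.24 and the rhomboid protease Parl by -1.43 ± 0.30. Ppa2, the mitochondrial pyrophosphatase, was among the 20 largest differences (-2.48 ± 0.70).

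Glucose release and glycogen genes were represented by a few large differences. G6pc, the catalytic subunit of glucose-6-phosphatase that frees glucose for export, was at 15.68 and 14.86 in STZ, 12.96 and 13.08 in STZ+MENS, and 14.18 and 13.22 in control. Its difference of -2.25 ± 0.38 (4.74-fold, adjusted p = 0.0595) placed the STZ+MENS livers below both STZ and both control livers. Fbp1, fructose-bisphosphatase, was at 18.13 and 18.05 in STZ and at 15.54 and 17.58 in STZ+MENS, so its -1.53 ± 0.60 rested mainly on sample 1 and was -0.51 without it. Tat, tyrosine aminotransferase, differed by -1.17 ± 0.23. Pck1, which makes phosphoenolpyruvate, was at 18.75 and 18.84 in STZ and 18.61 and 18.65 in STZ+MENS (-0.16 ± 0.13), near the top of the scale of these arrays. In the gluconeogenesis list 3 of 19 were lower and 0 higher (median -0.10), and 1 without STZ sample 1.

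Of 13 glycolysis and glycogen genes 3 were lower and 0 higher (median -0.06). Gbe1, the glycogen branching enzyme, was at 15.78 and 15.66 in STZ, 14.41 and 14.68 in STZ+MENS, and 15.19 and 15.12 in control (-1.17 ± 0.15). The glycogen-targeting phosphatase subunits Ppp1r3c and Ppp1r3b differed by -1.31 ± 0.25 and -1.17 ± 0.46, the latter by -0.41 without STZ+MENS sample 1. Among the lipid droplet genes 3 of 17 were lower and 0 higher (median -0.11). G0s2, an inhibitor of adipose triglyceride lipase, was at 14.64 and 14.43 in STZ, 13.48 and 12.71 in STZ+MENS, and 12.77 and 12.75 in control (-1.44 ± 0.26), while Abhd5, an activator of the same lipase, differed by -1.01 ± 0.21. The droplet coat protein Plin2 differed by -1.63 ± 0.43, and by -1.05 without STZ+MENS sample 1. An activator and an inhibitor of one lipase were thus both lower.

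Amino acid and nitrogen metabolism had 5 of 29 genes lower and 0 higher (median -0.17; 2 without STZ sample 1 or STZ+MENS sample 1, 3 without either control, 10 when the second STZ+MENS liver was left out). Cth, cystathionine gamma-lyase of cysteine synthesis, was at 17.61 in both STZ livers, 14.96 and 16.66 in STZ+MENS, and 16.51 and 16.16 in control (-1.80 ± 0.51; -0.95 without STZ+MENS sample 1). Slc25a15, the mitochondrial ornithine carrier of the urea cycle, differed by -1.96 ± 0.54 (-1.12 without that sample). Cps1, the entry enzyme of the cycle, differed by -1.27 ± 0.48 and by -0.53 without STZ+MENS sample 1.

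Of 38 genes of vitamin and cofactor handling 3 were lower, 2 higher and 33 inside 2-fold (median 0.01). Ttpa, the liver transfer protein of vitamin E, was at 14.92 and 15.08 in STZ, 13.58 and 13.61 in STZ+MENS, and 14.23 and 14.37 in control (-1.41 ± 0.14, adjusted p = 0.0569), one of the tightest differences. Mmab, an enzyme of cobalamin metabolism, was higher by 1.09 ± 0.18 and Rdh11, a retinol dehydrogenase, by 1.52 ± 0.40 (0.86 without STZ+MENS sample 1). Among the secreted liver proteins Apob, the scaffold of very-low-density lipoprotein, was at 17.43 and 16.85 in STZ, 14.21 and 15.84 in STZ+MENS, and 17.31 and 17.26 in control (-2.12 ± 0.51; -1.30 without STZ+MENS sample 1). Serpind1, heparin cofactor II, differed by -2.28 ± 0.70, and by -1.15 without STZ+MENS sample 1. In the same list F11, coagulation factor XI, was higher by 1.15 ± 0.16 and Serpina5, the protein C inhibitor, by 1.88 ± 0.23. Of its 42 genes 3 were lower (1 without STZ sample 1), 2 higher and 37 inside 2-fold, and albumin (Alb) stood at 18.98 and 19.00 in STZ and 18.85 and 18.87 in STZ+MENS.

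Conjugating and reducing enzymes act on drugs and steroids. Of 38 glucuronosyl-, sulfo- and glutathione transferases 8 were lower and 1, Sult5a1, was higher (median -0.26; from 3 lower without STZ sample 1, and 5 without STZ+MENS sample 1, to 10 without STZ+MENS sample 2). Genes of these families share sequence, so neighbouring members may share signal. Ugt2b34 was at 15.45 and 15.00 in STZ, 12.87 and 13.96 in STZ+MENS, and 15.19 and 15.04 in control (-1.81 ± 0.36). Gsto1, an omega-class glutathione transferase, differed by -1.54 ± 0.30. Sult1e1, the estrogen sulfotransferase, was at 10.42 and 9.34 in STZ, 7.14 and 8.62 in STZ+MENS, and 7.31 and 7.33 in control (-1.999 ± 0.54; -1.26 without STZ+MENS sample 1), so the controls lay with STZ+MENS. Aldo-keto and carbonyl reductases, a list compiled after values were seen, had 9 of 27 lower and 0 higher (median -0.55; 2 without STZ+MENS sample 1). Akr1d1, the steroid 5-beta-reductase of bile acid synthesis, differed by -1.50 ± 0.33.

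Of 16 genes of bile acid synthesis and transport 2 were lower, 1 higher and 13 inside 2-fold (median -0.22; 3 lower without STZ sample 2 or STZ+MENS sample 2). Abcb11, the bile salt export pump of the canalicular membrane, was at 15.27 and 14.61 in STZ and at 13.21 and 13.65 in STZ+MENS (-1.51 ± 0.27). Slc10a1, which takes bile salts up from blood, was at 12.23 and 12.09 in STZ and at 14.21 and 13.43 in STZ+MENS, higher by 1.67 ± 0.30. Controls were at 14.47 and 14.70 for Abcb11 and at 12.40 and 12.94 for Slc10a1.

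Of 29 oxidative stress genes 4 were lower and 0 higher (median -0.26; 2 without STZ sample 2). Txnl1, a thioredoxin-like proteasome partner, was at 11.53 and 11.52 in STZ, 10.15 and 10.07 in STZ+MENS, and 11.09 and 10.98 in control (-1.41 ± 0.13, adjusted p = 0.0569), and Txnrd1, the cytosolic thioredoxin reductase, differed by -1.06 ± 0.17. The metallothionein Mt1 was in contrast at 16.33 and 16.53 in STZ, 17.11 and 17.71 in STZ+MENS, and 14.29 and 14.54 in control, a difference of 0.98 ± 0.23 just inside 2-fold. Mt2 was at 15.29 and 15.62 in STZ and 15.23 and 15.48 in STZ+MENS, where the groups overlapped (-0.10 ± 0.42). Of 34 autophagy genes 4 were lower and 0 higher (median -0.10; 1 without STZ+MENS sample 1 and 2 without STZ sample 1), among them the cargo receptor Sqstm1 (-1.58 ± 0.43). Of 49 proteasome genes 5 were lower and 0 higher (median -0.20; 1 without STZ sample 1, 3 without STZ+MENS sample 1 and 12 without its sample 2), led by Psmb7, Psma6 (-2.13 ± 0.63) and Psma1 (-1.77 ± 0.40). Without STZ+MENS sample 1 Sqstm1 differed by -0.90, Psmb7 by -1.49, Psma6 by -1.21 and Psma1 by -1.17.

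The counts of lower p53 targets and DNA replication genes depended on single livers. Of 19 p53 targets 8 were lower and 1 higher (median -0.46). Cdkn1a (p21), the inhibitor of cell cycle kinases, was at 14.95 and 14.86 in STZ, 12.51 and 14.39 in STZ+MENS, and 10.81 and 10.17 in control. Its difference was -1.46 ± 0.58 (adjusted p = 0.185), and -0.52 without STZ+MENS sample 1, so STZ+MENS sample 2 stood close to STZ and both groups far above control. Ccng1, cyclin G1, was at 14.53 and 14.41, then 12.51 and 13.64, with controls at 12.88 and 12.67 (-1.39 ± 0.35). Fas, the death receptor, differed by -1.30 ± 0.30 and Zmat3, an RNA-binding p53 target, by -1.38 ± 0.38. The proapoptotic gene Bbc3 (Puma) was the higher one, at 11.35 and 11.13 in STZ and 12.51 and 12.27 in STZ+MENS (1.14 ± 0.17). Without STZ+MENS sample 1 Ccng1 differed by -0.83 and Zmat3 by -0.78. Leaving out that liver gave 1 lower p53 target with a median of -0.50 over the list, and leaving out either STZ sample gave 4.

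The replication machinery, a list compiled after values were seen, had 8 of 46 lower and 0 higher (median -0.39), and 2 without STZ+MENS sample 1 or STZ sample 2. It had 4 without either control, and 20 when the second STZ+MENS liver was left out. Mcm4, a subunit of the replicative helicase, was at 12.61 and 13.42 in STZ, 10.46 and 12.28 in STZ+MENS, and 10.89 and 11.18 in control (-1.65 ± 0.59; -0.74 without STZ+MENS sample 1 and -2.56 without its sample 2). Rpa3, which binds single-stranded DNA, had closer replicates, at 11.91 and 11.41 in STZ and 9.63 and 10.39 in STZ+MENS (-1.65 ± 0.31). Of 24 cell cycle genes 4 were lower and 0 higher (median -0.35), which became 0 without STZ+MENS sample 1, without STZ sample 2 or without either control, and 11 without STZ+MENS sample 2.

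BMP signalling controls hepcidin and the Id transcription factors in liver. Its list was compiled after values were seen and had 7 of 27 genes lower, 0 higher and 20 inside 2-fold (median -0.45; 3 lower without STZ sample 1). At unadjusted p under 0.05 without a fold limit, 13 of the 27 were lower and 4 higher. Id1 and Id3, direct targets of the pathway, were both lower. Id1 was at 14.12 and 13.59 in STZ, 12.26 and 12.73 in STZ+MENS, and 10.96 and 10.76 in control (-1.36 ± 0.24). Id3 was at 14.77 and 14.60, then 13.68 and 13.52, with controls at 12.82 and 12.85 (-1.09 ± 0.14). The receptor Bmpr1a differed by -1.42 ± 0.24, the receptor Acvr2a by -1.18 ± 0.18 and the inhibitory Smad7 by -1.14 ± 0.20. For Id1, Id3 and Smad7 the controls were below both groups, whereas for Bmpr1a they were at 11.04 and 10.85, level with STZ at 11.10 and 10.72. A list of condensin and cohesin genes, also compiled after values were seen, had 3 of 19 lower and 0 higher (median -0.30; 2 without STZ+MENS sample 1 or STZ sample 1, and 5 when the second STZ+MENS liver was left out). Sphingolipid enzymes, likewise a list of this kind, had 7 of 34 lower and 0 higher (median -0.22; 4 without STZ+MENS sample 1), with the sphingomyelin synthases Sgms1 (-1.29 ± 0.14) and Sgms2 (-1.56 ± 0.30) and the serine palmitoyltransferase subunit Sptlc1 (-1.22 ± 0.27).

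Other groups held no or few lower genes. Of 65 chromatin modifiers 0 were lower and 1 higher, with a median of 0.27, and 21 had an unadjusted p under 0.05 with a positive difference against 4 with a negative one. Of 58 spliceosome genes 0 were lower and 0 higher, and the same held for 61 TRIM proteins and 23 peptidyl-prolyl isomerases. Without STZ+MENS sample 2 the lower count was 1 for chromatin modifiers, 3 for spliceosome genes, 1 for TRIM proteins and 1 for the isomerases. Of 349 C2H2 zinc finger genes 6 were lower (1.72%; 11 without STZ sample 2 and 13 without STZ+MENS sample 2), and of 581 olfactory and vomeronasal receptors, which are dim in liver (median log2 level 8.04), 2 were lower (up to 6 when 1 liver was left out, without STZ+MENS sample 1) and 5 higher. Of 296 solute carriers 15 were lower (5.07%; 25 without STZ+MENS sample 2) and 7 higher, close to the share of genes of at least 10 in log2 level.

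Among the 183 higher genes were several of sterol synthesis. Of 18 cholesterol synthesis genes 6 were higher and 0 lower (median 0.72; 4 higher and 1 lower without STZ sample 2, 11 higher without STZ sample 1). Mvd, mevalonate diphosphate decarboxylase, was at 11.03 and 10.67 in STZ, 14.11 and 13.22 in STZ+MENS, and 14.15 and 13.64 in control (2.82 ± 0.33, 7.05-fold, adjusted p = 0.0569). Foxq1, a forkhead transcription factor, was at 13.09 and 13.59 in STZ, 16.04 and 15.20 in STZ+MENS, and 15.29 and 15.66 in control (2.28 ± 0.32). In both genes the STZ+MENS livers lay at the level of the controls. Pltp, the plasma phospholipid transfer protein, differed by 2.36 ± 0.68 (1.27 without STZ+MENS sample 1), Col27a1, a fibrillar collagen, by 2.71 ± 0.50 and Mup9, a major urinary protein, by 1.70 ± 0.31. Rhox5, a homeobox gene, had the largest higher difference (2.87 ± 1.06) with levels of 8.23 and 8.86 in STZ but 13.23 and 9.61 in STZ+MENS, and was 1.06 without STZ+MENS sample 1. Chrna4, an acetylcholine receptor subunit, was likewise at 14.38 and 10.85 in STZ+MENS, and its difference was 0.87 without the former.

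Of 25 genes of the insulin and IGF axis 0 were lower and 0 higher (median 0.00). There were 2 lower and 1 higher when the second STZ+MENS liver was left out, and 1 lower without the first or without STZ sample 2. The insulin receptor Insr was at 15.57 and 15.43 in STZ and 15.79 and 15.84 in STZ+MENS (0.31 ± 0.14). The receptor substrates Irs1 and Irs2 differed by 0.00 ± 0.21 and 0.16 ± 0.25 and Foxo1, the transcription factor that insulin restrains, by 0.22 ± 0.22. Igfbp1, a gene that insulin represses, was at 14.78 and 14.71 in STZ, 13.26 and 15.02 in STZ+MENS, and 14.68 and 13.15 in control, with overlapping groups (-0.60 ± 0.67). Its STZ+MENS livers stood on either side of the STZ livers, and without STZ+MENS sample 1 the difference was 0.28. A panel of 21 metabolic and stress genes was named whatever their result here, but was chosen with earlier results of these data known. Of these, 3 were 2-fold lower (G6pc, Cdkn1a and Ttpa) and 0 higher, where 3.51% and 1.03% of all genes were. G6pc was also among the 20 lower genes named by size. The fat synthesis genes Scd1 (1.68 ± 0.76) and Fasn (1.56 ± 0.72) exceeded 2-fold without p under 0.05: in STZ+MENS sample 1 they were at 18.88 and 11.65 and in sample 2 at 16.58 and 9.44.

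Dimmer probes of the same genes gave a second reading of the lower set. For 81 of the 622 genes the array carried 90 other named probes, which had not been used to choose the genes. Of these 73 were below 0 and 17 above, 25 were at least 2-fold lower and 0 at least 2-fold higher, and their median difference was -0.52. Among the 35 with a mean log2 level of at least 10, 32 were below 0 and 15 at least 2-fold lower, with a median of -0.85. Over all genes, the 738 other probes of that level had a median of -0.10, with 80 at least 2-fold lower and 15 higher. The 15 other probes of that level for higher genes had a median of 0.38, with 3 at least 2-fold higher. Some lower genes described above were not 2-fold lower by their other probe: Tmco1 (0.22), Dnaja1 (-0.16), Rnf139 (-0.37) and Ppp1r3b (-0.41). Others were: Snx7 (-2.61 and -1.73), Timmdc1 (-1.72) and Dnajc3 (-1.02).

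Markers of other cell types were counted because fewer cells of a type and less RNA per cell cannot be told apart in whole liver. No measured marker of Kupffer cells (0 of 13), sinusoidal endothelium (0 of 11), stellate cells (0 of 12), bile duct cells (0 of 11), neutrophils (0 of 9), T and NK cells (0 of 10), B cells (0 of 5), adipocytes (0 of 8) or exocrine pancreas (0 of 8) was 2-fold lower or higher. With 1 liver left out, up to 2 markers of bile duct cells and of stellate cells crossed that limit, and up to 1 of Kupffer cells, sinusoidal endothelium and adipocytes. Of 8 hepatocyte markers 3 were lower (1 without STZ sample 1), the already described Apob, Cps1 and Tat. Their summed intensity over the list was 2366460 and 2230210 in STZ and 2028830 and 2205480 in STZ+MENS. Of 7 pericentral hepatocyte markers 1 was lower, and the list's summed intensity was 674104 and 841316 in STZ, 437282 and 583894 in STZ+MENS, and 445292 and 436312 in control. The periportal hepatocyte list summed to 1222390 and 1225500 in STZ and 1144030 and 1169680 in STZ+MENS, and the adipocyte list to 453984 and 480792 in STZ and 413303 and 419137 in STZ+MENS. All 4 of these summed levels were lower in both STZ+MENS livers than in both STZ livers, and their part in the lower genes was not tested. They stood differently to control. The hepatocyte sum in control was 2623580 and 2532130, above STZ. The control sums were 1107870 and 1084590 for the periportal list and 394811 and 407847 for the adipocyte list, both below STZ+MENS. Pck1 belongs to both the periportal and the adipocyte list, so those 2 sums are not separate readings. Its log2 levels of 18.75 and 18.84 in STZ and 18.61 and 18.65 in STZ+MENS make up most of the adipocyte sum.

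Within the STZ+MENS group the other cell types were uneven. In sample 1 and sample 2 respectively, Kupffer cell markers summed to 85250 and 135742 (STZ 92410 and 91420) and stellate cell markers to 239985 and 160919 (STZ 175977 and 178116). Of the erythroid markers 3 were measured, of which Epb42 was under an intensity of 50 on average. Their sum was 104863 and 9356, beside 32670 and 55390 for STZ and 79679 and 95729 for control. As a ratio, the erythroid sum set the STZ+MENS livers apart by more than any other marker list. Sample 2 had the lowest erythroid sum of all livers, while sample 1 was nearer to control. The part of this sum in the differences between the STZ+MENS livers was not tested. Of 5 markers known to be higher in female liver 3 were lower (A1bg, Acot3 and Sult1e1; 1 of them without STZ sample 1), and of 4 higher in male liver 1, Elovl3, was higher. The summed intensity of the female markers was 11966 and 9228 in STZ, 5568 and 7756 in STZ+MENS, and 4268 and 4522 in control, so the controls were lowest. Without a fold limit, 3 of the 4 male markers were higher at unadjusted p under 0.05 (median 0.80). Their sum was 204535 and 190122 in STZ, 332474 and 295338 in STZ+MENS, and 406586 and 358318 in control. For both sums the STZ+MENS livers lay between STZ and control. The labels give no sex, and its part in these sums was not tested.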

How the data were processed

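Total RNA was amplified and labelled with Cy5 and hybridised to 12 single-colour arrays, per the labels' protocols. The deposited values are linear intensities that the authors had already normalized: the sorted values of all arrays nearly coincide, array medians lay between 768.89 and 770.33, and 44 to 52 of 26423 probes per array were below 0. No source used here gives the background correction or normalization; limma 3.30.7 is named, without its role, per the submitters' processing notes. The number of liver samples, 2 per group, limits the precision, because the 2 arrays of each liver were averaged.

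Negative values were raised to 0 and log2(intensity + 50) was computed, which understates differences of dim genes (652 genes had a mean intensity under 50). A single gene symbol was on record for 20377 probes, several for 0 and none for 6046. RefSeq names of GRCm38.p6 served to update them: 18213 were current, 2126 were synonyms and 38 stayed as on the platform. Each of 17742 genes was represented by its probe of highest mean log2, a choice between probes for 2278. Both arrays of a liver were averaged, after which limma 3.58.1 (lmFit, eBayes, R 4.3.3) was fitted to all 6 samples with a mean per group, with 3 residual and 3.2 prior degrees of freedom. Errors are standard errors of that model, and tests were two-sided. Sequences are RefSeq promoters.

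Genes named by size were the 20 lowest and 10 highest past 2-fold with unadjusted p under 0.05, without overlap, with a level of at least 8 in the brighter group and with arrays within 1 of each other, leaving out predicted genes. From each list described, up to 4 members of smallest p per direction were named, and a panel of 26 genes, of which 21 were measured. The comparison, the members and the lists were chosen with earlier results of these data known, and 7 lists, each marked in the text, after the values were seen. Sample numbers in the labels do not pair the groups. Alternatives changed the offset, the probe rule, the dim filter, the samples fitted, the arrays used, the normalization and the error model.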

Additional observations from a re-analysis of the deposited data

How the results depend on the processing

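The count of genes at least 2-fold lower was 622, and 427 to 1096 when 1 sample was left out. It was lowest without the first STZ+MENS sample and highest without the second. The higher count was 183, with a range of 143 to 421, and 321 without STZ sample 2. Under every alternative with a fitted test, lower genes made up 71.2% to 83.7% of the 2-fold genes, the highest share with cyclic loess (720 lower, 140 higher), which moved the median difference to 0.01. The rule of 4 pairs, chosen after seeing the data, gave 123 and 48. Unadjusted p under 0.05 was reached by 4503 genes, and by 2394 (without STZ sample 1) up to 5171 (without STZ+MENS sample 2) when 1 sample was left out. Adjusted p under 0.05 was reached by 0 genes, by 30 with the second array of each sample only, by 904 among genes whose arrays were within 1 of each other and by 3071 when the 12 arrays were fitted with the liver sample as a random block. It was reached by 0 to 1764 genes when 1 sample was left out, 1764 without the second STZ+MENS sample and 1 without the first. The cause was not tested.

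Sample numbers 1 and 2 are shared between groups in the labels. Deviations of STZ+MENS and STZ samples of the same number correlated at -0.07 across genes, so the numbers were not taken as pairs. With the number as a replicate block, 634 genes were lower, 194 higher and 0 passed after adjustment.

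Signs turned for panel genes with small differences: Ppara (-0.038 with the mean of all probes), Egr1 (-0.070 with the first arrays and -0.041 with cyclic loess) and Irs1 (0.061 with the second arrays). With 1 sample left out, differences ranged from -1.48 to 0.28 for Igfbp1, -0.24 to 0.23 for Irs1, -0.26 to 0.064 for Mt2, -0.070 to 0.39 for Irs2, -0.034 to 0.46 for Foxo1 and -0.58 to 0.60 for Egr1. Intensity limits the dim genes: 5 of the 622 lower genes had a mean intensity under 200.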

Other observations

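The 6046 probes without a gene name here were fitted in the same way and used in no comparison of the report. Of these, 99 (1.64%) were at least 2-fold lower in STZ+MENS than in STZ with unadjusted p under 0.05 and 53 (0.877%) at least 2-fold higher, and 2 passed after Benjamini-Hochberg adjustment over these probes by limma.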
